A study of Mus musculus with 2 samples.

Results

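The DNA double-strand break response genes are 37 listed mouse genes whose products find a broken DNA end, join or rebuild it, and halt the cell cycle meanwhile. Of these, 36 had at least 20 unique molecular identifiers (UMIs, each standing for 1 captured probe molecule) over both heart sections, out of 15236 genes that reached this level and 19465 genes in the table. The remaining member was Prkdc, the catalytic subunit of DNA-dependent protein kinase, with 0 UMIs in the control and 4 UMIs in the transgenic section. By step, 10 of the 36 genes belong to sensing, 11 to end joining, 13 to homologous recombination and 2 to the checkpoint.

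The expression was measured in 1 formalin-fixed, paraffin-embedded heart section of 5 μm per genotype with Visium CytAssist, in which probe pairs for known genes are hybridized to the tissue and captured on an array of spots, each covering several cells. The control mouse was α-MHC-MerCreMer+/−, and the TOP2B transgenic mouse was α-MHC-MerCreMer+/−TOP2B LSL/−. Both mice therefore carried the tamoxifen-dependent Cre that the α-MHC promoter drives in cardiomyocytes, and both received a single intraperitoneal dose of 80 mg/kg tamoxifen. The transgenic mouse also carried a human TOP2B cDNA behind a CAG promoter and a loxP-flanked STOP cassette at the Rosa26 locus. By the study's methods, transgenic mice given this dose were 6 weeks old and controls of the same age. The labels give neither the age nor the day of collection of these 2 mice. The comparison asks what happened to the transcripts of the break response in hearts that overexpress TOP2B, the topoisomerase that cuts both DNA strands to relieve torsion. With 1 section per genotype there is no replicate check and no test. All intervals are 95% intervals of counting error, and genotype cannot be told apart from mouse or section.

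Double-strand breaks are found by the MRN complex (Mre11, Rad50, Nbn) and by the Ku heterodimer (Xrcc5, Xrcc6). The kinases Atm and Atr then mark the chromatin, and Mdc1, Rnf8 and Rnf168 build the platform on which 53BP1 (Trp53bp1) and the Brca1 complex compete for the end. Classical end joining through Lig4 and Xrcc4 works throughout the cell cycle, whereas homologous recombination needs a sister chromatid and is mostly used by dividing cells. Adult cardiomyocytes rarely divide, and end joining is therefore regarded as their main route.

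The control section held 14376300 UMIs in 1256 spots and the transgenic section 12953389 UMIs in 924 spots, of which 1 had no UMI. The 36 genes took 6297 and 6157 of these UMIs, or 5.01 and 6.66 UMIs per spot. The sections share 725 spot barcodes, which are fixed array positions and not shared cells. Scaled to UMIs per 1000000 of a section (CPM), the median log2 ratio of transgenic over control was 0.20 over all genes with at least 20 UMIs, so a gene with an unremarkable ratio sat slightly above 0. With edgeR TMM factors in place of the section totals every log2 ratio fell by 0.16. The cardiomyocyte marker list made up 5.82% of control and 5.13% of transgenic UMIs. The table holds 11 of its 12 symbols, and all 11 were detected in both. Of these 11 genes, 8 had a log2 ratio below 0 and 3 above, with a median of -0.38. A separate list of 4 stress genes (Nppa, Myh7, Ankrd1 and Acta1) went from 0.141% to 4.06% of UMIs, with all 4 above 0. The paper names Nppa and Myh7 as cardiac genes of the fetal or stressed state. The cardiomyocyte list therefore does not show whether cardiomyocyte RNA as a whole fell. Erythroid genes went from 0.215% to 2.04%, fibroblast genes from 0.215% to 0.648% and macrophage genes from 0.0321% to 0.0631% of UMIs. Again no gene of these lists in the table was at 0, where the table holds 5 of the 6 erythroid symbols. All 10 fibroblast genes had log2 ratios above 0, from 0.00 for Gsn to 2.68 for Col1a1, with a median of 1.19. Of the 30970 control UMIs of this list, Col1a1, Col1a2 and Col3a1 gave 2474, 3970 and 6290. Of its 83980 transgenic UMIs they gave 14264, 22615 and 22756, so these collagens carried most of its rise. In tissue of this kind fewer cells of a type and less RNA per cell cannot be told apart. Mouse Top2b had 1531 control and 1318 transgenic UMIs, a log2 ratio of -0.07 (interval -0.17 to 0.04). Whether its probes read the human transgene is not given in the sources used here, and Top2b therefore checks nothing.

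As a list, the break response genes did not stand apart from other genes of like abundance. The median log2 ratio of the 36 genes was 0.25, with medians of the lower and upper limits at -0.30 and 0.70. The median over the 100 genes nearest in mean CPM to each of them was also 0.25, and the members lay a median of -0.04 from these neighbours. Of the 36 genes, 25 were above 0 (69.4%), where 63.2% of all genes and 65.3% of the 12403 genes in the members' range of mean CPM, 0.776 to 72.8 CPM, were above 0. The 25th and 75th percentiles of the members were -0.05 and 0.55, and those of the genes in their range -0.17 and 0.66. A CPM ratio of 1.5 or more was seen for 6 of the 36 genes (16.7%), against 27.4% of all genes and 28.7% of genes in the range. With TMM factors it was seen for 2 members, and the shares of other genes past this fold were not computed with these factors. A level lower by 1.5-fold or more was seen for 3 genes (8.33%), against 12.9% and 11.1%. The intervals of 11 genes (30.6%) lay above 0, those of 2 genes (5.56%) below 0, and those of 23 genes spanned 0. Of the genes in the range, 38.7% had intervals above 0 and 13.5% below 0. With TMM factors, 8 members (22.2%) had intervals above 0 and 6 (16.7%: Lig4, Parp1, Parp2, Rif1, Polq and Ercc1) below 0, against 29.9% and 19.2% of the genes in the range. The shares of members past 1.5-fold, or with an interval that left out 0, were under those of the genes in the range in both directions. Over 36 genes these differences come to few genes, and they were not tested. The summed level of the list was 438 CPM (427 to 449) in the control and 475 CPM (464 to 487) in the transgenic section. The log2 ratio of these sums was 0.12 (0.07 to 0.17) and became -0.04 with TMM factors.

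**Figure D1:**
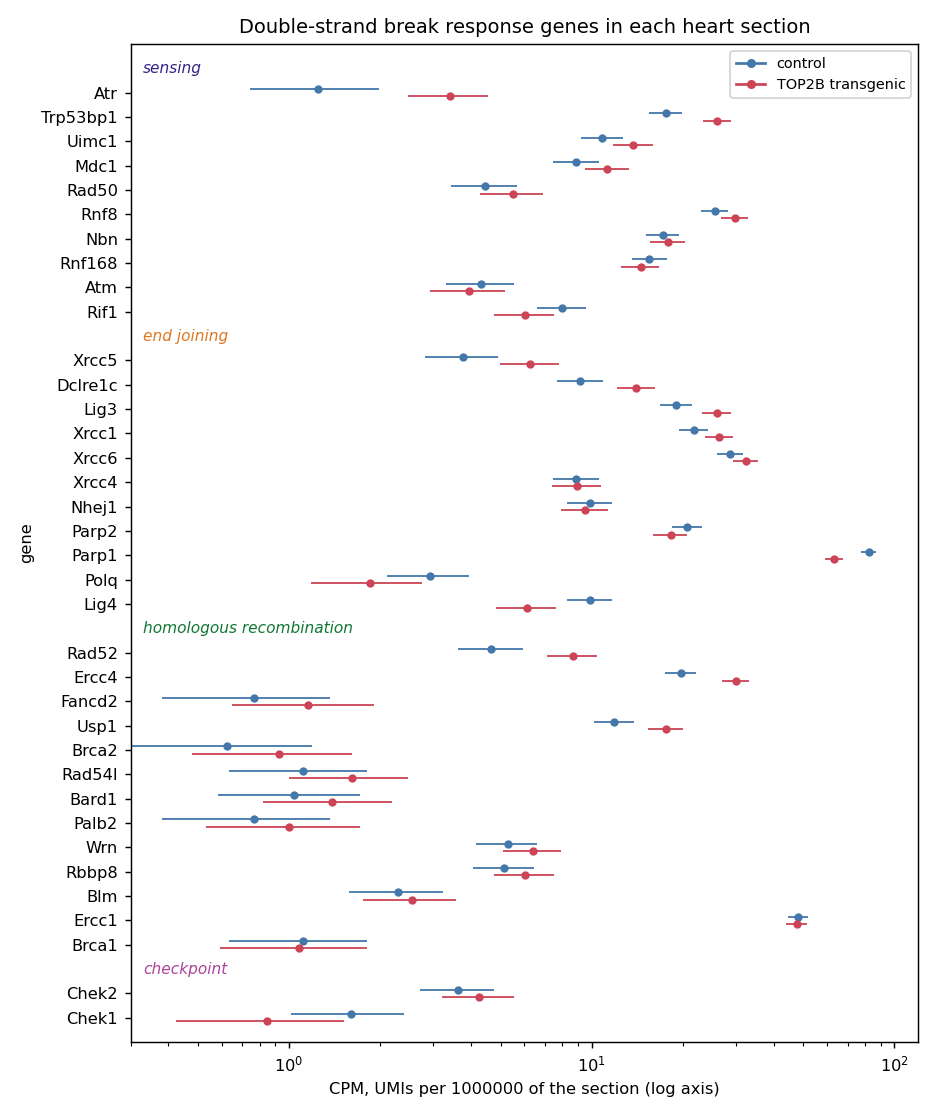
Levels of the 36 genes in CPM, the UMIs per 1000000 of each section (log axis), grouped by step and ordered within a step by the ratio between sections. Points are section values (blue control, red TOP2B transgenic) and lines are exact 95% Poisson intervals. The lines of most genes overlap, while those of Atr, Trp53bp1, Dclre1c, Lig3, Parp1, Lig4, Rad52, Ercc4, Usp1 and Xrcc5 do not. The share of other genes whose lines do not overlap was not computed.

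**Figure D2:**
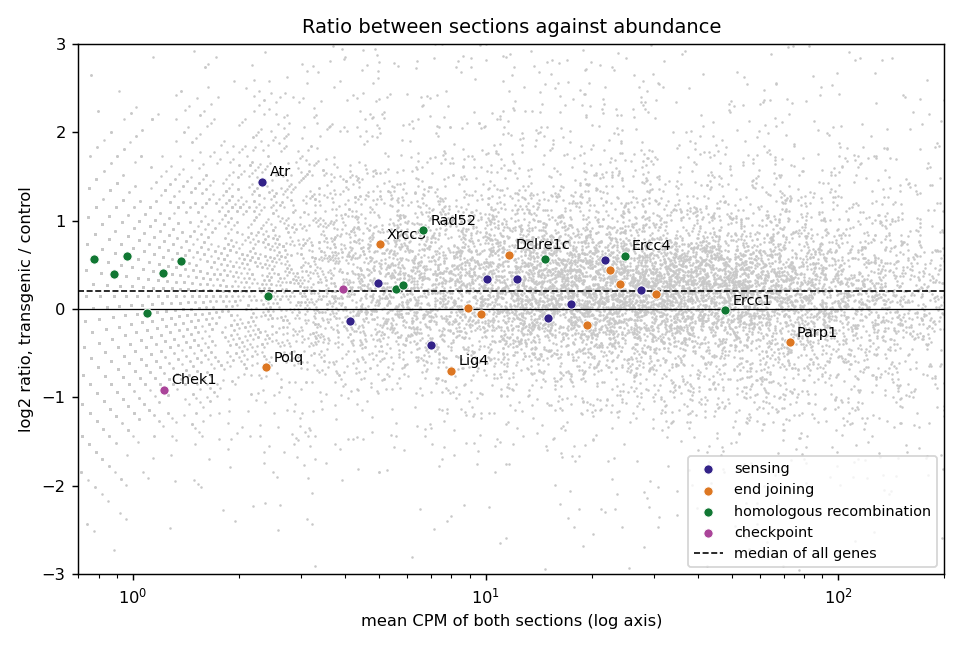
The log2 ratio of transgenic over control against the mean CPM of both sections (log axis), for all genes with at least 20 UMIs (grey) and the break response genes (coloured by step). The dashed line is the median of all genes at 0.20; the coloured points lie on both sides of it, inside the grey cloud, and spread wider at low abundance.

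Sensing genes went from 114 to 132 CPM as a sum, a log2 ratio of 0.21 (0.12 to 0.31). Homologous recombination genes went from 102 to 126 CPM, a log2 ratio of 0.30 (0.19 to 0.40). Most UMIs of homologous recombination came from the crosslink and flap genes (Ercc1, Ercc4, Usp1 and Fancd2). These went from 80.3 to 96.1 CPM, 0.26 (0.14 to 0.38). The resection and recombination genes gave 22.1 and 29.6 CPM, 0.43 (0.21 to 0.65). End joining genes were level as a sum at 217 and 213 CPM (log2 ratio -0.03, interval -0.10 to 0.05). So were the checkpoint kinases at 5.22 and 5.10 CPM (-0.03, interval -0.53 to 0.46). The end joining sum pools parts that differed. The classical end joining genes went from 70.3 to 77.1 CPM, 0.13 (0.006 to 0.26). The PARP group (Parp1, Parp2, Xrcc1, Lig3 and Polq) went from 147 to 136 CPM, -0.11 (-0.20 to -0.02). With TMM factors the sum of homologous recombination stayed above 0, at 0.14 (0.04 to 0.24), and that of sensing spanned 0, at 0.06 (-0.04 to 0.16). The sum of end joining lay below 0, at -0.19 (-0.26 to -0.11). Of the parts, crosslink and flap became 0.10 (-0.01 to 0.22) and resection and recombination 0.27 (0.05 to 0.49). Classical end joining became -0.02 (-0.15 to 0.10) and the PARP group -0.27 (-0.36 to -0.18). The median log2 ratio was 0.26 for sensing, 0.01 for end joining and 0.41 for homologous recombination, and the medians over each step's neighbours were 0.29, 0.24 and 0.24. For the checkpoint the median was -0.34 and that of its neighbours 0.26, on 2 genes of which Chek1 had 34 UMIs over both sections.

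Within a section, which needs no scaling, the pooled end joining step, but not its classical part, took a smaller share in the transgenic heart. Its genes held 49.5% of the member UMIs (Clopper-Pearson interval 48.3 to 50.8) in the control and 44.7% (43.5 to 46.0) in the transgenic section, and homologous recombination went from 23.4% (22.3 to 24.4) to 26.5% (25.4 to 27.6). Sensing went from 25.9% (24.9 to 27.0) to 27.7% (26.6 to 28.9), with overlapping intervals. The PARP group went from 33.5% (32.3 to 34.6) to 28.5% (27.4 to 29.7). Classical end joining was level, at 16.1% (15.2 to 17.0) and 16.2% (15.3 to 17.2). The crosslink and flap genes held 18.3% (17.4 to 19.3) and 20.2% (19.2 to 21.2). Resection and recombination held 5.03% (4.51 to 5.60) and 6.24% (5.65 to 6.87). Parp1 carried most of the fall in end joining. Without Parp1, end joining held 37.8% (36.5 to 39.2) and 36.3% (35.0 to 37.6) of the remaining member UMIs, and its summed log2 ratio became 0.15 (0.06 to 0.24). Shares of a common total depend on each other, so the fall of Parp1 by itself raised the shares of the other steps. Without Parp1 the rise of homologous recombination was smaller and sensing was level, with values given in the last section. The omission of Parp1 was chosen after the values were seen.

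Among the sensing genes, the kinase Atr and the end protecting factor Trp53bp1 were higher in the transgenic section, and Rif1, which acts downstream of 53BP1, was lower. Trp53bp1 had 253 control UMIs (17.6 CPM) and 336 transgenic UMIs (25.9 CPM), a log2 ratio of 0.56 (0.32 to 0.80). Its 4 control quadrants, made by cutting the section at the center of its tissue, ran from 16.9 to 18.9 CPM. Its transgenic quadrants ran from 22.0 to 29.9 CPM, so the sections did not overlap. A higher ratio was seen for 25% of its neighbours in abundance. Rif1 had 115 and 78 UMIs, 8.0 and 6.02 CPM, a log2 ratio of -0.41 whose interval of -0.84 to 0.02 reached 0. The value of Rif1 turned to 0.07 in the 50% of spots poorest in erythroid genes. Atm, the kinase that answers to double-strand breaks, had 62 and 51 UMIs, 4.31 and 3.94 CPM, a log2 ratio of -0.13 (-0.70 to 0.43).

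Atr, the kinase that answers to single-stranded DNA at resected ends and stalled forks, had the highest ratio of all members, and it is named after its values were seen because it has few UMIs. It went from 18 UMIs (1.25 CPM) to 44 UMIs (3.40 CPM), a log2 ratio of 1.44 (0.62 to 2.32). The control quadrants ran from 0.833 to 2.13 CPM and the transgenic quadrants from 2.47 to 4.47 CPM, without overlap. Of its 100 neighbours in abundance, 15% had a higher ratio. In the 50% of spots richest in cardiomyocyte genes the log2 ratio was 0.38, with 13 control and 15 transgenic UMIs, and in the other spots it went from 5 to 29 UMIs. Fibroblast, macrophage and erythroid genes were also higher in the transgenic section, and their part in the Atr value was not tested.

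The other sensing genes had smaller ratios. The MRN subunits Nbn (247 and 231 UMIs) and Rad50 (64 and 71 UMIs) had log2 ratios of 0.05 (-0.21 to 0.32) and 0.30 (-0.21 to 0.81). Mdc1, the reader of phosphorylated H2AX, and the ubiquitin ligases Rnf8 and Rnf168 gave 0.34 (-0.01 to 0.69), 0.22 (0.01 to 0.43) and -0.10 (-0.38 to 0.19). Uimc1 (RAP80), which brings the Brca1 complex to ubiquitin chains, gave 0.34 (0.02 to 0.66). A higher ratio was seen for 57% of the neighbours of Rnf8 and 41% of those of Uimc1. With TMM factors the intervals of both genes spanned 0.

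In end joining, the ligase Lig4 and the break sensor Parp1 were lower in the transgenic section, while the Ku80 gene Xrcc5 and the nuclease gene Dclre1c (Artemis) were higher. Lig4 went from 142 UMIs (9.88 CPM) to 79 UMIs (6.10 CPM), a log2 ratio of -0.70 (-1.11 to -0.29). Its quadrants ran from 7.98 to 11.1 CPM in the control and from 4.03 to 7.42 CPM in the transgenic section, again apart. It had the lowest ratio of the members with at least 100 UMIs, and 91% of its neighbours had a higher ratio.

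Parp1, which binds breaks and makes poly(ADP-ribose) chains, went from 1182 UMIs (82.2 CPM) to 820 UMIs (63.3 CPM), a log2 ratio of -0.38 (-0.51 to -0.25). The control quadrants of 71.1 to 90.5 CPM and the transgenic quadrants of 59.6 to 67.3 CPM did not overlap, and 79% of its neighbours had a higher ratio. The ratio was -0.36 in the cardiomyocyte-rich spots and -0.43 in the erythroid-poor spots. Its paralog Parp2 had 297 and 236 UMIs, 20.7 and 18.2 CPM, and a log2 ratio of -0.18 (-0.43 to 0.07).

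Xrcc5 went from 54 UMIs (3.76 CPM) to 81 UMIs (6.25 CPM), a log2 ratio of 0.74 (0.22 to 1.26). Its quadrants ran from 3.22 to 4.72 and from 5.77 to 6.84 CPM, and 33% of its neighbours had a higher ratio. Dclre1c went from 132 UMIs (9.18 CPM) to 182 UMIs (14.1 CPM), a log2 ratio of 0.61 (0.28 to 0.95), but its quadrants of 6.94 to 11.4 and 10.2 to 18.7 CPM overlapped. Its value in the cardiomyocyte-rich spots was 0.34, and 23% of its neighbours had a higher ratio over the whole section. Lig3 and Xrcc1, which form the ligase complex of alternative end joining, gave 0.44 (0.21 to 0.68) and 0.28 (0.05 to 0.50). Of their neighbours, 35% and 44% had a higher ratio, and with TMM factors the interval of Xrcc1 spanned 0. Xrcc6 (Ku70), Xrcc4 and Nhej1 (XLF) gave 0.17, 0.01 and -0.06, each with an interval across 0. Polq, the polymerase of microhomology-mediated joining, had 42 and 24 UMIs and -0.66 (-1.44 to 0.10).

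In homologous recombination Rad52, Ercc4 and Usp1 were higher in the transgenic heart by more than the counting error. For Ercc4 and Usp1, 31% and 32% of the neighbours in abundance had a higher ratio. Rad52, which anneals single strands, went from 67 UMIs (4.66 CPM) to 112 UMIs (8.65 CPM), a log2 ratio of 0.89 (0.44 to 1.35), the highest of the members with at least 100 UMIs. Its quadrants ran from 3.89 to 5.56 CPM in the control and from 6.15 to 11.7 CPM in the transgenic section, without overlap, and 20% of its neighbours had a higher ratio. The value was 1.12 in the cardiomyocyte-rich and 1.24 in the erythroid-poor spots.

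Ercc4 (XPF), the nuclease subunit that trims flaps and crosslinks, went from 283 UMIs (19.7 CPM) to 387 UMIs (29.9 CPM), a log2 ratio of 0.60 (0.38 to 0.83). The control quadrants of 18.9 to 20.5 CPM lay below the transgenic quadrants of 26.1 to 31.3 CPM. Ercc1, its obligate partner, had 689 and 615 UMIs, 47.9 and 47.5 CPM, and a log2 ratio of -0.01 (-0.17 to 0.15), with overlapping quadrants. Usp1, which removes ubiquitin from Fancd2, went from 171 UMIs (11.9 CPM) to 228 UMIs (17.6 CPM), 0.57 (0.27 to 0.86), and its quadrants overlapped, with a highest control value of 15.8 CPM and a lowest transgenic value of 15.4 CPM.

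The genes of strand invasion and the crosslink repair gene Fancd2 were close to the lower limit of the assay. Brca1 had 16 control and 14 transgenic UMIs, Bard1 15 and 18, Palb2 11 and 13, Brca2 9 and 12, Rad54l 16 and 21, and Fancd2 11 and 15. Their log2 ratios ran from -0.04 to 0.60, every interval spanned 0, and a difference was not detectable at this depth. The helicase genes Blm and Wrn (33 and 33, 76 and 83 UMIs) and the resection factor Rbbp8 (CtIP; 74 and 78 UMIs) gave 0.15, 0.28 and 0.23, also with intervals across 0. The median of 0.41 for this step therefore rests partly on genes with few counts.

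The checkpoint kinase Chek2, which Atm activates, had 52 and 55 UMIs, 3.62 and 4.25 CPM, and a log2 ratio of 0.23 (-0.34 to 0.81). Chek1, which Atr activates and which is named after its values were seen, had 23 and 11 UMIs, 1.6 and 0.849 CPM, and -0.91 (-2.10 to 0.18). Neither difference exceeded the counting error.

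Over the 36 genes, all transgenic quadrants lay above all control quadrants for 7 (Atr, Trp53bp1, Xrcc5, Xrcc6, Lig3, Rad52 and Ercc4), or 19.4%, where 29% of the genes in the range did so. All lay below for 2 (Lig4 and Parp1), or 5.56%, against 9.83%. Over 36 genes both differences come to few genes, and whether the members differ from the background was not tested. Quadrants of 1 section share a mouse, and their range describes the tissue only.

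**Figure D3:**
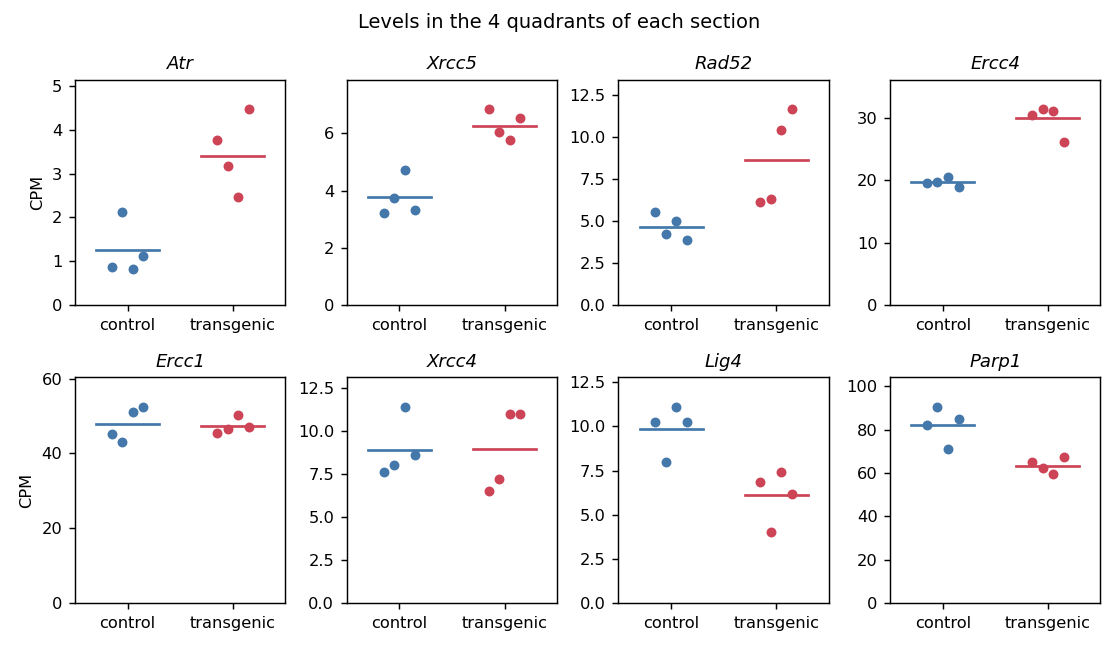
CPM in each of the 4 quadrants (points) and in the whole section (line) for 8 members, in the control (blue) and TOP2B transgenic (red) section; each axis starts at 0. Atr, Xrcc5, Rad52 and Ercc4 are higher and Lig4 and Parp1 lower in all transgenic quadrants, while Ercc1 and Xrcc4 overlap.

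Several of these proteins work in fixed pairs. Other pairs compared here are only related, such as the kinases Atm and Atr or the paralogs Parp1 and Parp2. The ratio of both UMI counts within a section needs no scaling. Of 13 pairs compared, 4 changed by more than the counting error, with no adjustment for the number of pairs. The same share among pairs of other genes was not computed, so whether 4 of 13 is unusual cannot be said. Ercc1 over Ercc4, the subunits of the flap nuclease, went from 2.43 to 1.59, a log2 change of -0.62 (-0.89 to -0.34). Lig4 over Xrcc4, the subunits of the end joining ligase, went from 1.11 to 0.681, a log2 change of -0.70 (-1.27 to -0.14). Xrcc5 over Xrcc6, the Ku subunits, went from 0.131 to 0.194, a log2 change of 0.57 (0.01 to 1.13). Atm over Atr, the apical kinases, went from 3.44 to 1.16, a log2 change of -1.56 (-2.62 to -0.55) that rests on 18 control UMIs of Atr. The ratios themselves also carry the strength of each gene's probes and say nothing of how many proteins of each partner were present.

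The other 9 pairs had intervals across 0. Lig3 over Xrcc1 changed by 0.16 (-0.17 to 0.49), Parp1 over Parp2 by -0.20 (-0.48 to 0.09) and Nbn over Rad50 by -0.25 (-0.83 to 0.33). Rnf8 over Rnf168, the successive ubiquitin ligases, changed by 0.31 (-0.05 to 0.67), and Chek1 over Chek2 by -1.14 (-2.47 to 0.12). Brca1 over Bard1, Palb2 over Brca2, Usp1 over Fancd2 and Blm over Wrn, pairs that each have a gene with few UMIs, changed by -0.45 (-2.05 to 1.14), -0.17 (-2.11 to 1.75), -0.03 (-1.34 to 1.23) and -0.13 (-1.01 to 0.76).

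**Figure D4:**
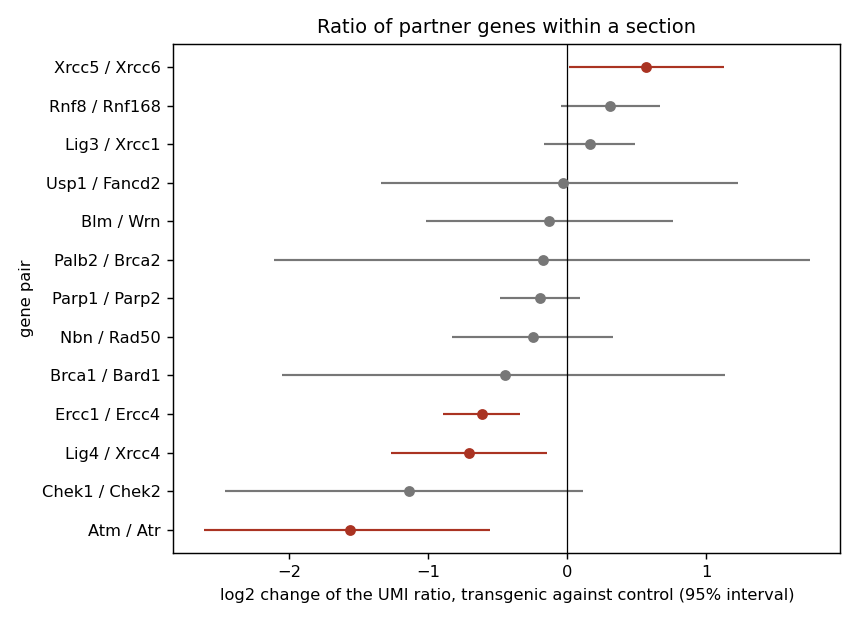
The log2 change, transgenic against control, of the UMI ratio of the first over the second gene of each of 13 pairs, with exact 95% intervals. The pairs in red, Atm/Atr, Lig4/Xrcc4, Ercc1/Ercc4 and Xrcc5/Xrcc6, have intervals that leave out 0; the grey ones span it.

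Shown are the promoters of the kinase pair, which had the largest change of ratio, and of the nuclease pair, which had the narrowest interval. The letters before the starts of paired genes whose ratio changed can thus be compared. The sequences are from RefSeq (GRCm38.p6), 250 bases before to 50 after a listed transcription start, 5′ to 3′ on the gene's strand. For Atr this start is the 5′ end of the gene record, at 95857597. For Atm, Ercc1 and Ercc4 it lies inside the gene record, whose 5′ ends are at 53536828, 19344067 and 13109366. Capitals mark matches, on either strand, to a CCAAT box, to the letters CCGGAAG of the ETS family motif, or to the letters GCATGCG, which form the core of the motif of NRF1. For the E2F motif the letters TTTCCCGC were searched, along with the variant spelled TTTCGCGC, the variant spelled TTTGCCGC and the variant spelled TTTGGCGC, and all of them are absent from these 4 windows, and no matches of different motifs overlap there. The windows are chr9:53536622-53536921 (minus strand) for Atm, chr9:95857347-95857646 (plus) for Atr, chr7:19344821-19345120 (plus) for Ercc1 and chr16:13109486-13109785 (plus) for Ercc4.
Atm: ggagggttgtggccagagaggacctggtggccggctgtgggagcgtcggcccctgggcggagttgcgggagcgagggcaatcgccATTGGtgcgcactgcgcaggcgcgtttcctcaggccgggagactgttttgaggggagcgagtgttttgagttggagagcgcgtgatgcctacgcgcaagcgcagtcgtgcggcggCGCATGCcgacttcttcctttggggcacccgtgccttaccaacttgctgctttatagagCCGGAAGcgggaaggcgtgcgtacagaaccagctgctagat
Atr: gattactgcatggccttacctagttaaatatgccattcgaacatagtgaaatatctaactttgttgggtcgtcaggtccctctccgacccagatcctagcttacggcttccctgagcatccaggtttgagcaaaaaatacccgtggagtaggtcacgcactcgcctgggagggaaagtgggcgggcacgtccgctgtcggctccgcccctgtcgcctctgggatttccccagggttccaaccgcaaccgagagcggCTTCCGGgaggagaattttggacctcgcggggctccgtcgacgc
Ercc1: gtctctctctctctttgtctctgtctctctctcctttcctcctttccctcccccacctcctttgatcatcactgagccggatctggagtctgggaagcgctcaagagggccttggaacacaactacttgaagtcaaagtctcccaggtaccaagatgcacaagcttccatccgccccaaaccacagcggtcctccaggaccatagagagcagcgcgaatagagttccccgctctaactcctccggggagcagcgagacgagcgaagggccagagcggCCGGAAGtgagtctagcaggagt
Ercc4: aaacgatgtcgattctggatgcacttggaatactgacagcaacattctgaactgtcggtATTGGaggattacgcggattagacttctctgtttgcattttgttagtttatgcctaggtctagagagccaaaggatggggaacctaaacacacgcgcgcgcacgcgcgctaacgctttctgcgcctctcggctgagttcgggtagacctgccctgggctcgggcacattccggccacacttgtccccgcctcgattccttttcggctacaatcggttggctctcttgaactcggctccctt
The Atm window held 1 match to each of the 3 motifs, Atr and Ercc1 held 1 ETS match each, and Ercc4 held 1 CCAAT box. The GC content was 64% for Atm, 57.3% for Atr, 57% for Ercc1 and 53.3% for Ercc4. Of the 37 genes, 29 had a promoter in the table. An E2F match stood in 5 of them (17.2%: Bard1, Brca2, Chek2, Mdc1 and Xrcc6), against 2.60% of all 27025 genes with a promoter. An ETS match stood in 9 (31.0%), against 9.93%, a CCAAT box in 14 (48.3%), against 41.1%, and an NRF1 core in 4 (13.8%), against 4.01%. All genes with a promoter include many that are not expressed in heart, and a match is a description of letters and not of binding.

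The members were spread over the tissue. At least 1 member UMI was counted in 98.0% of control and 96.3% of transgenic spots. When each spot was thinned to 8134 UMIs (140 control and 78 transgenic spots were shallower and dropped), it was 98.0% (97.0 to 98.8) and 97.8% (96.5 to 98.6), with medians of 3 and 4 member UMIs per spot. Before thinning the medians were 5 and 6. Moran's I, a score of how strongly neighbouring spots resemble each other, had a median over the members of -0.00051 in the control and 0.0066 in the transgenic section. The genes in the members' range had medians of 0.0001 and 0.0104, and only 1 member in each section, Xrcc1 at 0.0167 and Xrcc6 at 0.0496, lay above their 90th percentile. No member was strongly patterned by this score.

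**Figure D5:**
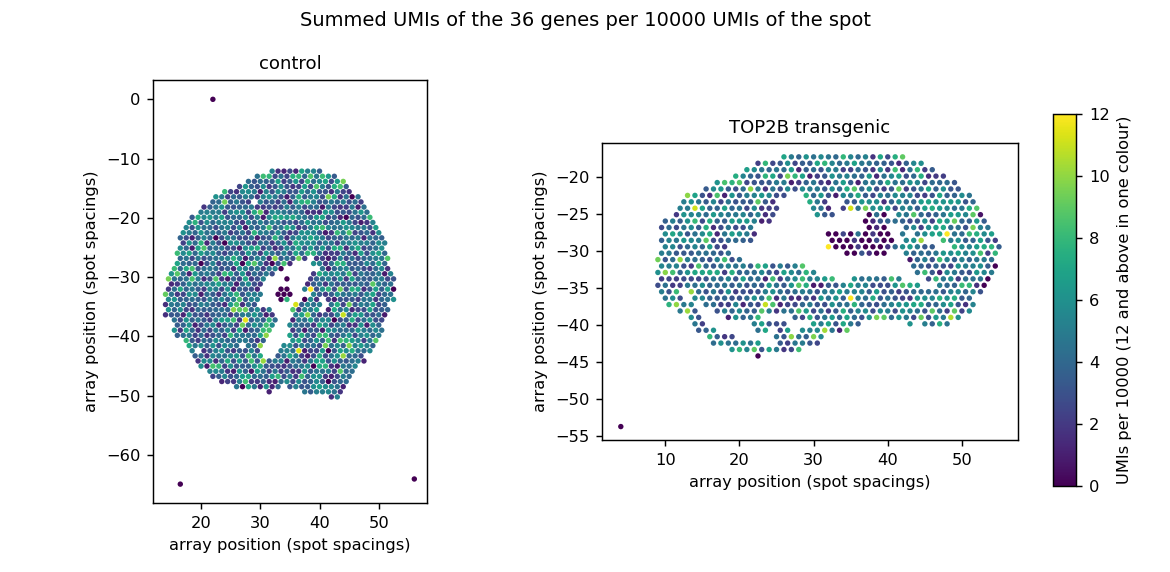
Summed UMIs of the 36 genes per 10000 UMIs of a spot, at the array position of each spot, in the control (left) and TOP2B transgenic (right) section, on 1 colour scale. Values scatter from spot to spot in both sections with no broad region set apart, while many of the spots inside the openings of the tissue are dark.

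Spots were also ranked within a section by their share of cardiomyocyte genes. The list as a whole was equal in the upper and lower 50% of the spots, with a log2 ratio of 0.00 (-0.07 to 0.07) in the control and -0.04 (-0.11 to 0.03) in the transgenic section. The medians over all genes were -0.03 and -0.11. The contrast between these sets was small, 6.16% against 5.45% cardiomyocyte UMIs in the control and 5.87% against 4.35% in the transgenic section, and spots mix cell types in both sets.

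Nbn was higher in the cardiomyocyte-rich spots of both sections. It had 19.7 against 14.5 CPM in the control, with a log2 ratio of 0.44 (0.06 to 0.82), and 20.8 against 14.7 CPM in the transgenic section, 0.50 (0.11 to 0.90). Between the upper and lower 25% of spots it was 0.14 (-0.43 to 0.73) and 0.85 (0.28 to 1.44), so the control value did not hold there. In the transgenic section alone, Xrcc6 and Lig4 also had intervals above 0, at 0.35 (0.06 to 0.64) and 0.72 (0.03 to 1.43), and 6 genes had intervals below 0. These were Atr at -1.02 (-2.03 to -0.07), Nhej1 at -0.71 (-1.27 to -0.17), Dclre1c at -0.61 (-1.06 to -0.17), Mdc1 at -0.51 (-1.0 to -0.02), Parp2 at -0.49 (-0.87 to -0.11) and Rnf8 at -0.37 (-0.67 to -0.07). In the control section Lig3 alone had an interval below 0, at -0.39 (-0.75 to -0.04). The 3 genes above 0 (8.33%) and 6 below 0 (16.7%) of the transgenic section stood beside 4.34% and 17.6% of the genes in the range, and the 1 gene each way (2.78%) of the control section beside 1.47% and 3.78%. Whether these spots differ more in one section than in the other was not tested.

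Ranking by fibroblast genes, which was added after the values were seen, gave the reverse order for several of these genes. Both rankings split the same spots, and the overlap of their sets was not computed. The reverse order is therefore no independent observation. Col1a1, Col1a2 and Col3a1 gave most of the fibroblast list UMIs in the transgenic section but not in the control. There the ranking of transgenic spots follows these collagens more than the other genes of the list. In the transgenic section the fibroblast-rich spots had 17.4 CPM of Dclre1c against 10.4 CPM in the others, a log2 ratio of 0.75 (0.30 to 1.21). Mdc1, Nhej1 and Rnf8 gave 0.68 (0.17 to 1.19), 0.61 (0.06 to 1.17) and 0.36 (0.07 to 0.67), and Nbn -0.40 (-0.79 to -0.01). Polq gave 1.45 (0.05 to 3.07) on 18 and 6 UMIs. The list as a whole was 0.12 (0.05 to 0.19) there, below the median of all genes of 0.17. In the control section the list gave 0.03 (-0.05 to 0.10). Intervals lay above 0 for 5 members (13.9%) and below 0 for 1 (2.78%) in the transgenic section, where 22% and 3.44% of the genes in the range did so. In the control section 1 member was above 0, Rad54l on 13 and 3 UMIs, and 0 below, against 6.82% and 1.39% of the genes in the range.

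Genes of the S and G2 phases were used to rank the spots because recombination genes are made mostly in dividing cells. The cycling list held 0.0206% of control and 0.0194% of transgenic UMIs, and the median log2 ratio of its 25 genes was 0.02. Cenpa alone gave 1379 of its 2961 control and 1103 of its 2508 transgenic UMIs. With few list UMIs per spot, the ranking rests largely on counting error and on Cenpa. It therefore cannot decide whether the genes follow dividing cells. Between the 50% of spots richer and the 50% poorer in cycling genes the break response list differed by 0.04 (-0.03 to 0.11) in the control. In the transgenic section it differed by 0.01 (-0.06 to 0.08). The homologous recombination genes differed by 0.09 (-0.06 to 0.24) in the control and -0.01 (-0.15 to 0.13) in the transgenic section. Most UMIs of this step came from the crosslink and flap genes, not from those of resection and recombination. Atm was higher in the richer spots of the control section, with 44 against 18 UMIs and a log2 ratio of 1.29 (0.47 to 2.17). Ercc1 was higher there too, at 0.28 (0.06 to 0.50). In the transgenic section these genes had values below 0, Atm with 21 against 30 UMIs and -0.52 (-1.40 to 0.33) and Ercc1 with -0.09 (-0.33 to 0.14). The intervals that left out 0 there were those of Wrn, at 0.67 (0.002 to 1.35), and of Fancd2, at -2.0 (-4.47 to -0.12) on 3 and 12 UMIs. Of the genes in the range, 2.39% had intervals above and 1.64% below 0 in the control section, and 3.6% and 1.73% in the transgenic section, beside 2 (5.56%) and 0 members and 1 member each way (2.78%).

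For the other genes of the pathway, 88 symbols present in the table of which 82 reached 20 UMIs, the median log2 ratio was 0.04. Relative to the median of all genes it was -0.16. Of the 82 genes, 47 (57.3%) were above 0, 9 (11.0%) were at least 1.5-fold higher and 11 (13.4%) at least 1.5-fold lower, where the shares of all genes were 63.2%, 27.4% and 12.9%. By step the medians were -0.08 for sensing, 0.18 for end joining, 0.18 for homologous recombination and 0.29 for the checkpoint. Among those with at least 100 UMIs the lowest were Shld1, a shieldin subunit that protects ends, with 829 and 336 UMIs and -1.15 (-1.34 to -0.97), Ube2n, the conjugating enzyme that works with Rnf8, with 229 and 97 UMIs and -1.09 (-1.45 to -0.74), and Rpa3, a subunit of the single-strand binding complex, with 456 and 210 UMIs and -0.97 (-1.21 to -0.73). The highest were Paxx, an end joining factor that binds Ku, with 239 and 552 UMIs and 1.36 (1.14 to 1.58), Rad18, a ubiquitin ligase, with 37 and 70 UMIs and 1.07 (0.48 to 1.69), and Faap20 of the Fanconi core complex, with 251 and 417 UMIs and 0.88 (0.65 to 1.11). Mre11a, the nuclease of the MRN complex and named after its values were seen, had 118 and 65 UMIs and -0.71 (-1.17 to -0.26), against 0.05 and 0.30 for its partners Nbn and Rad50.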

How the data were processed

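Visium CytAssist libraries of 1 heart section per genotype were analysed. Reads had been processed by the authors in Space Ranger 2.0.0 (per the file headers), with GRCm39 named in the submitters' processing notes; the probe set is not given in the sources used here. The values used were the deposited UMI counts, as whole numbers for each gene in each spot, without normalization. Moran's I is a score deposited by the authors and was used as given.

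Because spots are no replicates, the UMIs of all spots in a section were added up and scaled to CPM of the section total. A rank test across spots, as in the study's methods, was not run, and there are no p-values. Log2 ratios carry exact conditional binomial intervals, levels exact Poisson intervals, shares Clopper-Pearson intervals and partner ratios Fisher's exact conditional intervals (Python 3.11.15, scipy 1.17.1), all at 95% and for counting error only. A count of 0 was set to 3 counts (0.209 CPM in the control, 0.232 CPM in the transgenic section) in medians. Neighbours are the 100 genes nearest in mean CPM that are not members. Named with full values are the highest and lowest member of each step and the 5 highest and 5 lowest members with at least 100 UMIs, members on which a partner ratio or a split of the spots turns, and the 3 highest and 3 lowest other pathway genes with at least 100 UMIs. The members and lists were chosen with earlier results of these data known. Alternatives included edgeR 4.0.16 TMM and DESeq2 1.42.0 size factors (R 4.3.3), used for scaling only. Levels of single genes were not ranked against each other, since probes differ in strength. Step sums, shares of member UMIs and partner ratios carry that strength as well. Promoters came from a RefSeq table of GRCm38.p6; for genes with several promoters a match in any was counted.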

Additional observations from a re-analysis of the deposited data

How the results depend on the processing

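No paired analysis was possible because each genotype has 1 section. The precision is set by counts: 10 of the 36 genes had under 100 UMIs. Scaling moved sums but not ratios between genes. The summed log2 ratio of all members was -0.039 with TMM factors, -0.032 with DESeq2 size factors and 0.031 with totals without the 50 most abundant genes. Under these, in the same order, sensing was 0.057 and 0.064 (TMM, DESeq2), end joining -0.19, -0.18 and -0.12, and homologous recombination 0.14 and 0.15 (TMM, DESeq2), and 2, 2 and 3 members were at least 1.5-fold higher. With 1 CPM added, 3 were higher, 1 was lower, and the median of homologous recombination relative to all genes was 0.068. The shares of all genes past this fold were not computed under these settings. Relative to the median of all genes, the list median, 0.05 as reported, was -0.011 in the cardiomyocyte-rich 50% of spots, -0.028 away from the tissue edge and -0.040 in the erythroid-poor 50%, 0.13 for members with at least 1 UMI and 0.00014 with at least 100 UMIs, where 1 member was lower and Chek2 alone gave 0.0026 for the checkpoint. The relative step medians in the cardiomyocyte-rich spots were -0.10 for end joining and 0.0096 for homologous recombination, away from the edge -0.090 for sensing and 0.057 for homologous recombination, and in the erythroid-poor spots -0.13 for sensing and 0.32 for homologous recombination, whose sum was 0.40 and whose control share was 22.1% there; end joining was -0.062 with at least 1 UMI. Without Parp1 the sum was 0.21 for all members and 0.15 for end joining, whose relative median was -0.11; the control and transgenic shares were 31.9% and 32.0% for sensing, 37.8% and 36.3% for end joining and 28.8% and 30.5% for homologous recombination. Ranked by stress genes in place of cardiomyocyte genes, the upper and lower 50% of transgenic spots differed by 0.040, and by fibroblast genes by 0.12. The share of transgenic spots with a member UMI was 97.8% after thinning. The cause of these changes was not tested. Of the values for lists and steps, 42 left the limits set for this check and 2 more changed sign. Those 2 were the sums of all members with TMM and with DESeq2 factors. The other 141 stayed within the limits. So did 316 of 324 values of single genes, within their own intervals. For a sum or a share the limits were its own interval. For a median they had the width of the interval of the summed ratio, centered on the median. A count had to stay within 1.5-fold. The planned split at 1 cycling UMI per 1000 left 2 spots in each section and gave no value.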
